A study of Mus musculus with 2 samples.

Results

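The collagen chain genes are the protein-coding genes whose symbol reads Col, a number, a and a number, such as Col2a1, in the RefSeq annotation of the mouse build GRCm38. There are 44 of them among 21631 protein-coding genes on the 20 chromosomes that hold peaks. They were set against a list of 3373 Suz12 peaks from 1 chromatin immunoprecipitation sequencing library, in which DNA bound by a protein is pulled down with an antibody and sequenced. The library came from wild-type E14 cells, a mouse embryonic stem cell line, grown in serum and then differentiated for 72 h. For this, leukemia inhibitory factor was withdrawn and all-trans-retinoic acid was added at 1 µM. The series also labels a Suz12[-/-] library at 0 h, which was not analysed here. With 1 library there is no replicate error, no comparison of genotypes or times, and no p-value.

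Polycomb Repressive Complex 2 (PRC2), to which Suz12 belongs, methylates histone H3 on lysine 27 and keeps many developmental genes silent, mostly at CpG islands. Collagens are the main structural proteins of the extracellular matrix, built from chains that wind into triple helices. Fibrillar collagens form the fibrils of bone, skin, tendon and cartilage. Type IV collagen forms the network of basement membranes, the sheets beneath epithelia and around vessels. The other collagens decorate fibrils, span the cell membrane, or form filaments and short networks.

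Suz12 peaks lay at 10 of the 44 collagen genes (22.7%, exact 95% binomial interval 11.5 to 37.8), where a gene counts if a peak overlaps its body or lies within 2.5 kb of it. Over all protein-coding genes the share was 13.1%. The genes with a peak were Col2a1 and Col27a1 among the fibrillar chains, and Col8a2, Col9a3, Col13a1, Col14a1, Col15a1, Col19a1, Col25a1 and Col26a1 among the other collagens. None of the 6 type IV chain genes had one. The same 10 collagen genes were counted when the peak had to overlap the gene (12.3% of all genes) or to lie within 1 kb (12.6%) or 5 kb (14%) of it. They were also counted when at least 50% of the peak had to lie inside the margin (12.7%), or when the peak had to lie within 2.5 kb of the start, or of either end where no start is listed (11.0%). When scores had to be at least double the lowest, 9 were left (10.1% of all genes), and with scores from the median up, 5 were left (7.24%), namely Col8a2, Col13a1, Col14a1, Col15a1 and Col19a1. Intervals cover counting error only and treat genes as independent. The depth of the library is unknown, so a gene without a listed peak may carry signal below the authors' threshold.

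The sequence just before the annotated start of a gene shows the CpG dinucleotides to which the series' title ties PRC2 recruitment. The stretches below hold the 250 bases upstream of the start in RefSeq GRCm38.p6, written 5′ to 3′ on the strand of the gene, with every CpG in capitals. The first 4 belong to the collagen genes with the highest-scoring peaks over an annotated start.
Col13a1 (chr10:61979109-61979358, minus strand): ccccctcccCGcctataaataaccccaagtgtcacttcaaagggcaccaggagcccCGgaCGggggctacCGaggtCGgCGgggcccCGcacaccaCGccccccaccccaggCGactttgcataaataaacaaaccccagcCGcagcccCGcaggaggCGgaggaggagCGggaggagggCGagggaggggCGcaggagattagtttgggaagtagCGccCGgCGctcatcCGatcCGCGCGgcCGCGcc
Col15a1 (chr4:47207762-47208011, plus strand): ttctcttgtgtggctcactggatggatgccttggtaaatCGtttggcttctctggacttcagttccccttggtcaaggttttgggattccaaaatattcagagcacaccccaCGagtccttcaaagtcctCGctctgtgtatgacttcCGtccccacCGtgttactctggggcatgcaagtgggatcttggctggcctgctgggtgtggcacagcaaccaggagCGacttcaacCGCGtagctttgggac
Col19a1 (chr1:24587438-24587687, minus strand): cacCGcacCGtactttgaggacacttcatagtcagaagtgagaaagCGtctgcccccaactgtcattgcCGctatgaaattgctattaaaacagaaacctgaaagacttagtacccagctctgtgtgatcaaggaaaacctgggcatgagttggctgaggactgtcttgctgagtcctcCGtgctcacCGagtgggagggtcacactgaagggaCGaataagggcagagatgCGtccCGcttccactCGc
Col27a1 (chr4:63215162-63215411, plus strand): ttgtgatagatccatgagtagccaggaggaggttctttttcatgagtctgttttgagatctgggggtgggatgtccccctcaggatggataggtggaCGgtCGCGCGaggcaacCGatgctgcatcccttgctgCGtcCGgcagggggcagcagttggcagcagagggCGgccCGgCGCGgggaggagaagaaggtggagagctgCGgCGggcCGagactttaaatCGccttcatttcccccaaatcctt
The next 4 have no peak. Col5a1 and Col23a1 have the highest CpG ratio among the peak-free collagen genes whose start window, the 300 bases from 250 before the start to 50 after it, overlaps no other gene, and Col28a1 and Col3a1 have the lowest.
Col5a1 (chr2:27886175-27886424, plus strand): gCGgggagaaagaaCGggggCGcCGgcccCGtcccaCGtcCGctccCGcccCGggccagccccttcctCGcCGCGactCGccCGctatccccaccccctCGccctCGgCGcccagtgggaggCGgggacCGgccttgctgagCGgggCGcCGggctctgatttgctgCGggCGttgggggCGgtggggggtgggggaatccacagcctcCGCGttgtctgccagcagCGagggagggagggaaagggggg
Col23a1 (chr11:51289670-51289919, plus strand): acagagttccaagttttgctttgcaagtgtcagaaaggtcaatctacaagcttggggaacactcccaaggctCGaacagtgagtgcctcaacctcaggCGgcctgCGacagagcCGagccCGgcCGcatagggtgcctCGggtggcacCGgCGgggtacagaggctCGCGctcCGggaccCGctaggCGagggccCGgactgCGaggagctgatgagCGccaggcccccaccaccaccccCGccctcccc
Col28a1 (chr6:8192618-8192867, minus strand): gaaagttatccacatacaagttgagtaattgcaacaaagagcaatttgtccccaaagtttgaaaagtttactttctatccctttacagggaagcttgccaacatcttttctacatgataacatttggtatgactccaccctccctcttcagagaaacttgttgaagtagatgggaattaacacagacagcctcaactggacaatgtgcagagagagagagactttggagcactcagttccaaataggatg
Col3a1 (chr1:45311288-45311537, plus strand): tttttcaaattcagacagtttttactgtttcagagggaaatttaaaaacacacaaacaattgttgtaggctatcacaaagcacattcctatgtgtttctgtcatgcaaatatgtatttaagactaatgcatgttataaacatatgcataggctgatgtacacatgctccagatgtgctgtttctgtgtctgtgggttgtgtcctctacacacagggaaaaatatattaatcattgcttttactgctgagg
The upstream stretch of Col13a1 holds 24 CpGs, that of Col27a1 15, that of Col19a1 10 and that of Col15a1 8. The stretch of Col5a1 holds 28 and that of Col23a1 18, although neither gene had a peak, and those of Col28a1 and Col3a1 hold 0. The windows of Col4a1 and Col4a2 have a higher CpG ratio, but each runs into the other gene and is not printed. The stretches of Col15a1, Col19a1, Col27a1 and Col28a1 lie wholly, and those of Col5a1, Col13a1 and Col23a1 partly, within the outer limits of their own gene.

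**Figure D1:**
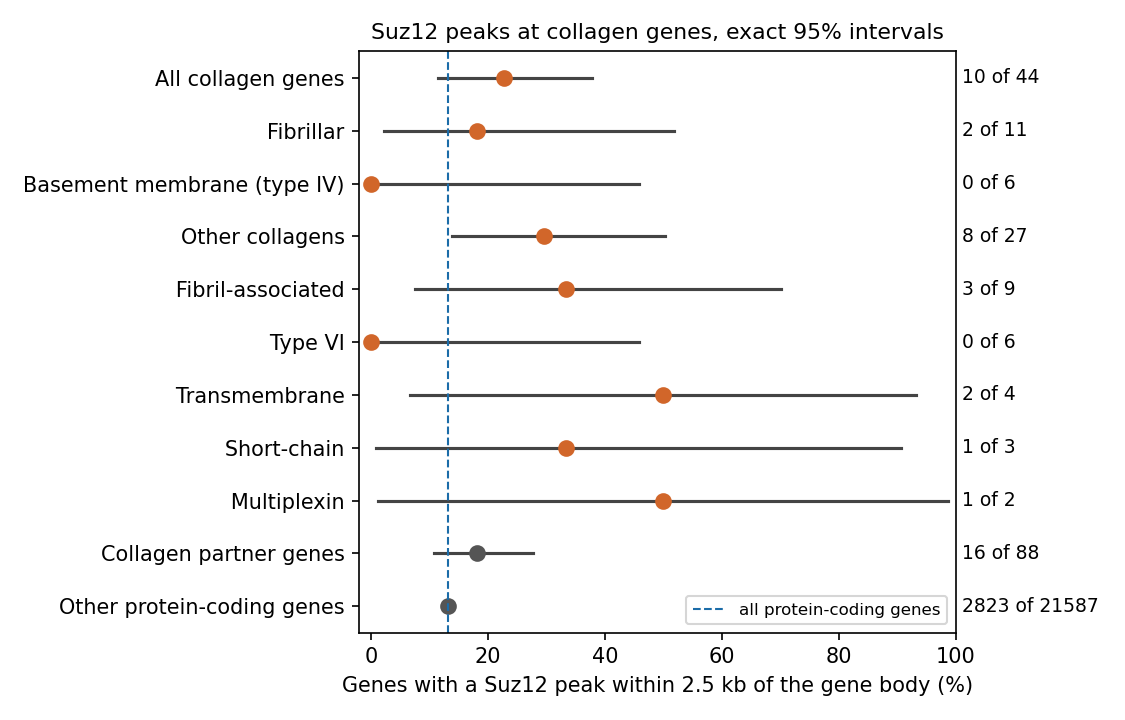
Percentage of genes with a Suz12 peak within 2.5 kb of the gene body (horizontal axis), for the collagen genes, their classes and main families, the collagen partner genes and the other protein-coding genes; points are percentages, lines exact 95% intervals, and the dashed line marks 13.1%. Type IV and type VI chains sit at 0 of 6 each and the other collagens at 8 of 27, and all class intervals are wide.

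Of the fibrillar collagens 2 of 11 genes had a peak (18.2%, 2.28 to 51.8), near the 13.1% of all protein-coding genes. Col2a1 encodes the chain of type II collagen, the main fibril of cartilage. Its peak, on GRCm38 chr15:98001586-98004907, was 3322 bp wide with a score of 553.63, and reached from 183 bp beyond the upper end of the gene to 3139 bp inside it. It covered 10.8% of the gene, the largest share taken by any single collagen peak. Col27a1 encodes a fibrillar chain of cartilage that forms thin fibrils. Its peak of 2079 bp at chr4:63213848-63215926 scored 514.5 and covered the lower end of the gene, where the gene begins. The scores are the authors' own, on a scale the file does not state, and here they only rank, describe and filter peaks.

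The chains of the main fibrils of bone, skin and vessels had no peak. These are Col1a1 and Col1a2, which form type I collagen of bone and skin, and Col3a1, which forms type III collagen of vessels and skin. The chains Col5a1, Col5a2, Col5a3, Col11a1 and Col11a2, which join these fibrils in small amounts and set their diameter, had none either, nor did Col24a1. The nearest peak was 38344 bp from Col1a1, at Ppp1r9b, and 740797 bp from Col1a2, at Calcr. For Col3a1 and Col5a2, which lie 24624 bp apart on chromosome 1, it was 2596781 bp and 2659574 bp away.

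Type IV collagen genes stood without a peak at all 3 of their loci (0 of 6, interval 0 to 45.9%). This interval takes in the 13.1% of all protein-coding genes. These genes lie head to head, in pairs: Col4a1 and Col4a2 overlap by 85 bp, Col4a4 and Col4a3 by 114 bp, and 1274 bp separate Col4a6 from Col4a5. Col4a1 and Col4a2 make the form found in nearly all basement membranes, and Col4a3, Col4a4 and Col4a5 the form of the kidney filter. The peak nearest to Col4a1 was 9862 bp away, at chr8:11187523-11188561, with a score of 184.17 and no protein-coding gene within 2.5 kb. The peak nearest to Col4a2 was 28298 bp away and lay at Rab20 (score 961.78). For Col4a5 it was 32096 bp away, at Irs4 (score 1897.58), and for Col4a3 and Col4a4 it was at Dock10, 1827756 and 1689254 bp away. At the shares of other genes in the same length bands, 1.69 of these 6 genes would have a peak, beside the 0 counted. At the overall share of other genes it would be 0.785.

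Among the other collagens 8 of 27 genes had a peak (29.6%, 13.8 to 50.2), beside 13.1% of all protein-coding genes. At the shares of other genes in the same length bands, 5.64 of the 27 would have one. The transmembrane collagens held 2 of 4 (50.0%, 6.76 to 93.2), an interval that takes in 13.1%. Col13a1, a collagen of cell adhesions and of the junction between nerve and muscle, had the highest score of the family, 1417.48, in a peak of 2806 bp at chr10:61977300-61980105. Of the 3373 peaks 821 scored higher. Col25a1, which is made by neurons and by developing muscle, had a peak of 1178 bp at chr3:130180761-130181938 with a score of 305.54. Col17a1, of the anchors of skin epithelium, and Col23a1 had none.

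The fibril-associated collagens, which sit on the surface of fibrils, held 3 of 9 (33.3%, 7.49 to 70.1). This interval too takes in the 13.1% of all protein-coding genes. Col14a1, of tendon and skin, had the widest collagen peak, 3344 bp at chr15:55306190-55309533 with a score of 1191.43. It reached from 1454 bp below the lower end of the gene to 1890 bp inside it. Col19a1 had a peak of 1861 bp at chr1:24586038-24587898 (score 835.47), wholly inside the gene and 24 bp from its upper end. Col9a3, a chain of type IX collagen that coats cartilage fibrils, had the lowest score, 159.42, in a peak of 1142 bp at chr2:180597706-180598847, and 3292 peaks scored higher. This peak also lay 1869 bp from Ogfr. The other chains of type IX, Col9a1 and Col9a2, had none, nor did Col12a1, Col16a1, Col20a1 and Col22a1. Col9a1 ends 4944 bp from Col19a1 on chromosome 1, but the peak at Col19a1 was at the far end of that gene, 333300 bp from Col9a1.

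Of the multiplexins, collagens of basement membrane zones, Col15a1 had a peak and Col18a1, the source of endostatin, had none. The Col15a1 peak, 2599 bp at chr4:47207240-47209838 with a score of 1385.16, was the second highest of the family and also lay within 2.5 kb of the non-coding gene Gm12426. Col8a2, a short chain of Descemet's membrane in the cornea, was the only collagen gene with more than 1 peak. A peak of 1631 bp at chr4:126285999-126287629 (score 399.86) covered its start, and a peak of 2317 bp at chr4:126300103-126302419 (score 757.36) lay 13309 bp after the start, inside the gene. Its relatives Col8a1 and Col10a1, which marks enlarged cartilage cells, had none. Col26a1, a secreted collagen of testis and ovary, had a peak of 2180 bp at chr5:136881364-136883543 with a score of 538.12, and Col28a1 had none.

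All 6 chains of type VI collagen, which forms beaded filaments around cells, lacked a peak (0 of 6, 0 to 45.9%), an interval that takes in the 13.1% of all protein-coding genes. For Col6a3, on chromosome 1, the nearest peak was 500381 bp away. Col6a1 and Col6a2 lie 85161 bp apart on chromosome 10, and Col6a4, Col6a5 and Col6a6 lie in a row on chromosome 9 with gaps of 27854 and 27823 bp. The peak nearest to this row was 51367 bp from Col6a4. Col7a1, the chain of the fibrils that anchor skin epithelium, also had none. Over the 34 collagen genes without a peak, the nearest peak lay between 9862 and 2850026 bp away, with a median of 281297 bp. It was within 50 kb for 8 of them and beyond 1 Mb for 8.

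**Figure D2:**
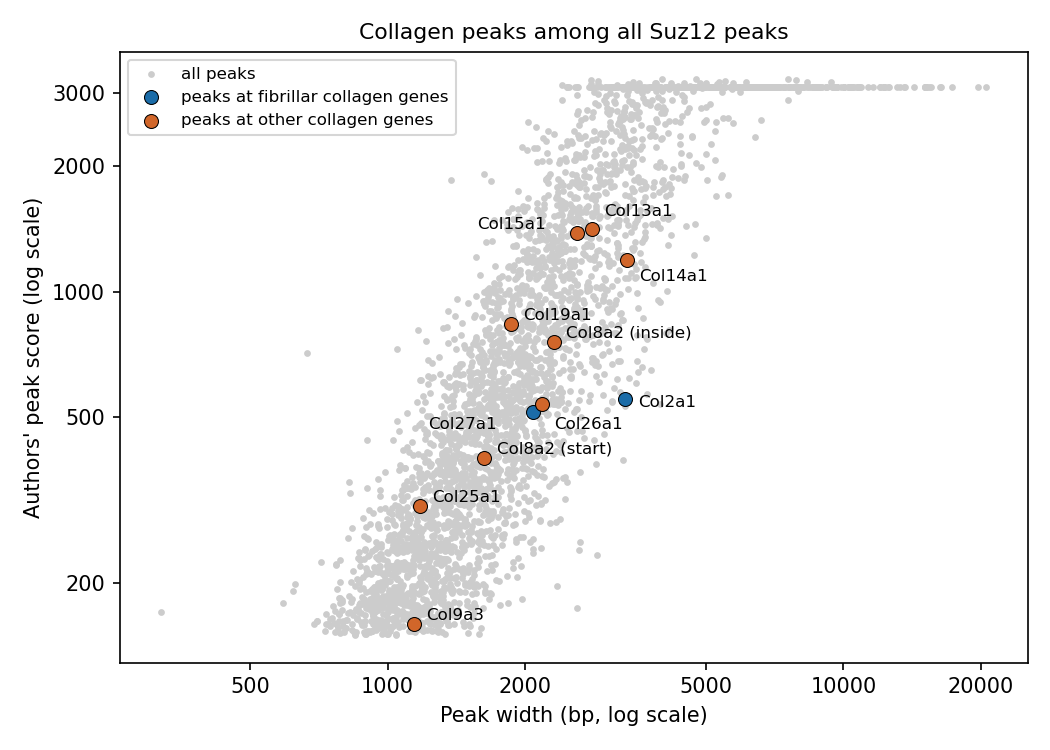
Width (horizontal axis, bp, log scale) and authors' score (vertical axis, log scale) of the 11 peaks at collagen genes, coloured by class, over all 3373 peaks in grey. The collagen peaks run from 159.42 at Col9a3 to 1417.48 at Col13a1 and stay below the row of peaks at 3100.

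The collagen peaks were of ordinary size for the list. Best scores over the 10 genes had a median of 655.495 and a maximum of 1417.48, and best widths a median of 2248.5 bp. For the 2823 other genes with a peak the medians were 663.42 and 1980 bp. None of the 10 collagen genes reached a score of 3100 (0%, interval up to 30.8), the value at which 325 peaks pile up, whereas 369 of 2823 other genes did (13.1%, 11.8 to 14.4). The interval of the collagen share takes in the share of the other genes. Col2a1 was wide for its score, with a width near that of Col14a1 at less than the score of Col19a1.

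Every collagen gene with a peak had one within 2.5 kb of an end of the gene (10 of 10), as did 2530 of 2823 other genes with peaks (89.6%). All 10 are longer than 20 kb and had a peak at 1 end only. Among other genes of that length with a peak at an end, 1333 of 1376 (96.9%) had it at 1 end only. The strand and start of 6 of the 10 genes are in the RefSeq promoter table, and in all 6 a peak covered the annotated start. The peak at Col13a1 ran from 997 bp before the start to 1808 bp after it, that at Col15a1 from 772 to 1826 bp and that at Col19a1 from 461 to 1399 bp. At Col8a2 it was nearly centred on the start, from 795 bp before to 835 bp after. At Col25a1 it lay almost wholly after the start, from 84 bp before it to 1093 bp after. Relative to the listed start Col27a1 differed, since its peak reached 1564 bp before that start and 514 bp after it. Measured from the lower end of the gene, the Col27a1 peak reached 161 bp outside and 1918 bp inside, so most of it lay within the gene. The listed start lies inside the annotated gene at all of these genes but Col8a2. Col2a1, Col9a3, Col14a1 and Col26a1 are not in that table. The annotation used gives no exons, so exonic, intronic and untranslated sequence was not separated.

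**Figure D3:**
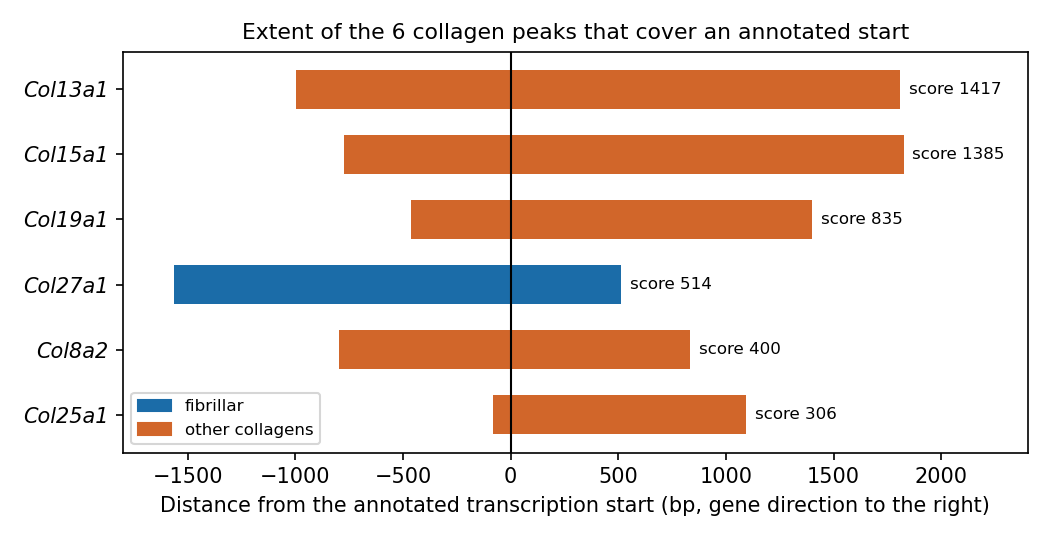
Extent of the 6 collagen peaks that cover an annotated transcription start, in bp from the start along the direction of the gene (horizontal axis), one bar per gene from the highest score at the top to the lowest. In 5 of the 6 the longer part lies after the start. At Col27a1 it lies before the listed start, which is inside the gene, and most of the peak is inside the gene too.

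Collagen genes are long, so their count was also set beside that of genes of like length. Their median length was 114 kb, against 17.3 kb for other protein-coding genes, and longer genes had a peak more often. Of genes between 100 and 200 kb, 4 of 18 collagen genes (22.2%) and 325 of 1419 other genes (22.9%) had a peak. Above 200 kb it was 3 of 8 collagen genes (37.5%) and 382 of 982 others (38.9%). Between 20 and 50 kb it was 3 of 11 (27.3%; Col2a1, Col8a2 and Col9a3) and 547 of 5023 (10.9%). Up to 20 kb and between 50 and 100 kb, no collagen gene of 4 and 3 had one, against 10.3% and 14.7% of the others. The count of 10 collagen genes stands beside 9.29 when the shares of the other genes in these length bands are applied, and 5.75 when their overall share is. For fibrillar chains the count of 2 stands beside 1.95, and for the other collagens 8 beside 5.64. For type IV chains 0 stands beside 1.69. The family's count is thus close to that of genes of its length, but it adds up classes and length bands that lie above and below. Whether length accounts for the share above 13.1% was not tested. Within the family, genes with a peak had a median length of 131 kb and genes without one 110 kb.

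CpG content at the start varied widely across the family. The promoter table gives a window for 35 of the 44 collagen genes and 17274 protein-coding genes in all. A peak lay within 2.5 kb of a start at 6 of the 35 collagen genes (17.1%, 6.56 to 33.6) and at 10.0% of all. The CpG ratio is the number of CpGs over the number expected from the C and G content. Windows with a ratio of at least 0.6 and a GC content of at least 50% are called CpG-rich here, a limit chosen after the peaks had been placed. Where a gene has several annotated starts, the richest window was used. The ratio had a median of 0.471 over collagen genes and 0.618 over other genes, and 11 of the 35 collagen windows were CpG-rich. Among them are the overlapping windows of Col4a1 and Col4a2, so the interval counts 1 locus as separate genes. Of the 11 CpG-rich collagen genes 5 had a peak at the start (45.5%, 16.7 to 76.6), against 14.1% of 8416 other CpG-rich genes. Of the 24 remaining collagen genes 1 had one (4.17%, 0.105 to 21.1), against 6.05% of the others. Among CpG-rich genes longer than 100 kb it was 4 of 8 collagen genes (50%) and 329 of 1194 others (27.6%). In bands of the ratio alone, the share of other genes was 14.3% from 0.4 to 0.6, 16.4% from 0.6 to 0.8 and 13.2% from 0.8 to 1.0. Collagen genes in these bands had a start peak at 0 of 10, 2 of 5 and 3 of 6. The limit of 0.6 thus falls just above a band in which no collagen gene had a start peak.

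The 5 CpG-rich genes with a peak were Col25a1 with a ratio of 0.86, Col13a1 with 0.84, Col8a2 with 0.83, Col19a1 with 0.67 and Col27a1 with 0.64. The 6 CpG-rich genes without one were Col4a1 with 0.90, Col4a2 with 0.82, Col5a1 with 0.81, Col23a1 with 0.70, Col5a3 with 0.66 and Col11a2 with 0.61. The richest collagen window thus belonged to a gene without a peak: Col4a1 holds 37 CpGs in 300 bases, and its divergent partner Col4a2 holds 33. Split by class, 4 of 5 CpG-rich windows of other collagens had a peak, 1 of 4 of fibrillar chains and 0 of 2 of type IV chains, counts too small to tell the classes apart. Col15a1 was the exception in the other direction. Its window held 8 CpGs and a ratio of 0.39, yet its peak had the second highest score. The window lies around a listed start inside the gene, and CpGs were not counted over the rest of the 2599 bp peak. Whether the whole peak is poor in CpG is thus not shown. Col3a1, Col28a1 and the first start of Col9a1 hold 0 CpGs, and none had a peak. Genes with several annotated starts, namely Col6a2, Col9a1 and Col18a1, had no peak at any of them.

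**Figure D4:**
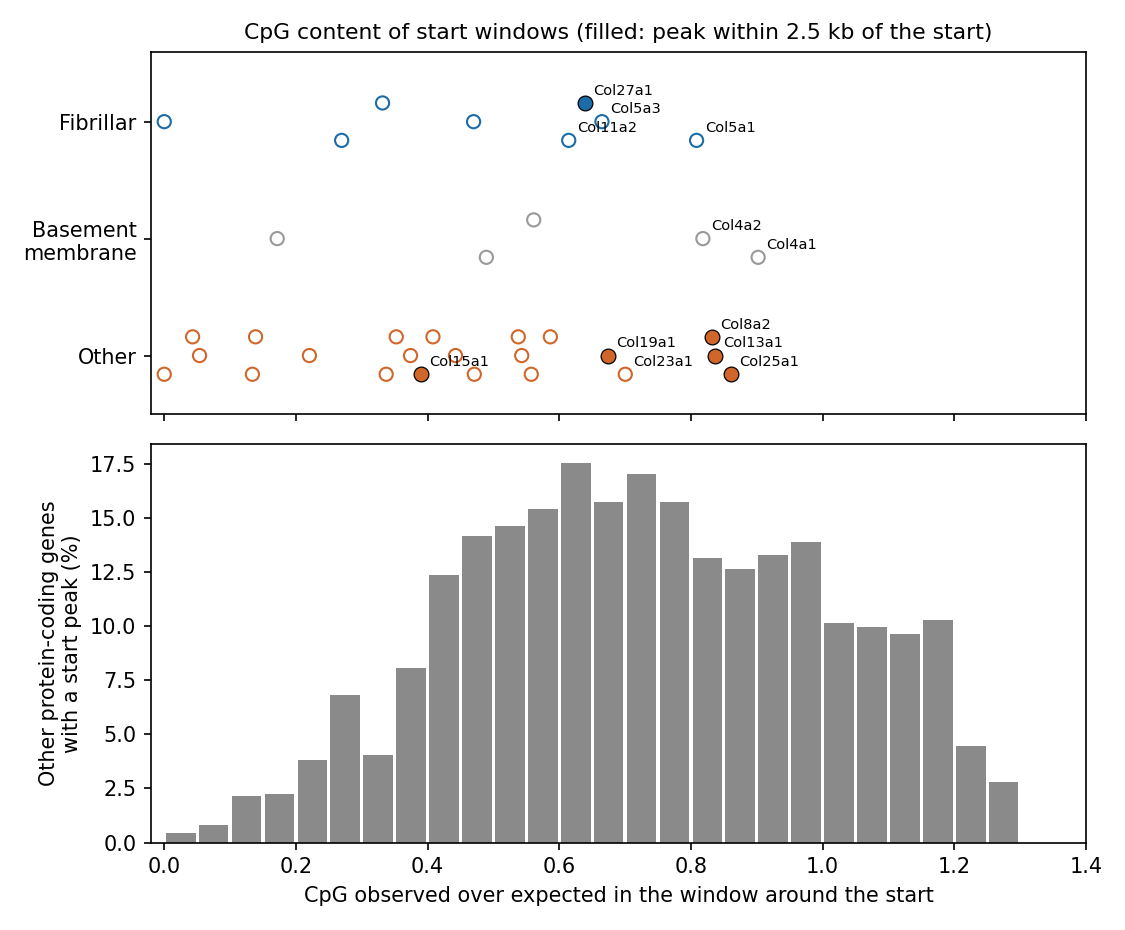
Upper panel: CpG observed over expected in the window around the start (horizontal axis) for 35 collagen genes by class, filled where a peak lies within 2.5 kb of the start. Lower panel: percentage of other protein-coding genes with such a peak by the same ratio, for bins of at least 20 genes. Filled points lie at 0.64 or above except Col15a1 at 0.39. Open points share that range, up to Col4a1 at 0.90, and others follow just below it, from Col11a2 at 0.61 and Col16a1 at 0.59 downwards.

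Short motifs were also searched in the 300-base windows. TATAAA, searched on both strands, was in the window of 1 of 6 collagen genes with a start peak (Col13a1) and 4 of 29 without one (Col3a1, Col10a1, Col11a2 and Col17a1), against 14.9% of all protein-coding genes. GGGCGG, the core of the GC box, was in 3 of 6 and 19 of 29, against 49.8% of all. A match is only a run of letters and does not show that a factor binds there.

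Collagen partner genes had a peak at 16 of 88 (18.2%, 10.8 to 27.8), beside 13.1% of all protein-coding genes. They process, crosslink, bind, accompany or degrade collagen, or belong to a list of basement membrane partners. Genes for cleaving the propeptides of newly made collagen had a peak at 5 of 9 (55.6%, 21.2 to 86.3). These were the propeptidase genes Adamts2 (score 951.66) and Adamts3 (215.19), the tolloid-like protease genes Tll1 (551.15) and Tll2 (259.34), and Pcolce2 (524.25), an enhancer of C-propeptide cleavage. Their lengths run from 57924 bp at Pcolce2 to 209828 bp at Adamts3, so long genes are common among them too. Adamts14, Bmp1, Furin and Pcolce had none, and their lengths run from 6418 bp at Pcolce to 76308 bp at Adamts14, which is longer than Pcolce2. Crosslinking enzyme genes had a peak at 2 of 6, Lox (3139.86) and Loxl1 (434.87), with none at Loxl2, Loxl3, Loxl4 and Tgm2.

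Proteoglycan and matrix protein genes that accompany fibrils had a peak at 3 of 14. Tnxb, a tenascin of connective tissue, and Comp, a cartilage protein that binds type II collagen, each reached 3100, above every collagen gene, and Acan, the main proteoglycan of cartilage, scored 608.69. Bgn, Dcn, Fmod and Fn1 were among those without one. Hydroxylation, glycosylation, folding and export genes had 2 of 21, Colgalt2 (221.35) and Ppib (989.1), with none at Colgalt1, Creb3l1, Crtap and Fkbp10. The peak counted for Ppib lay 1746 bp outside that gene and overlapped its neighbour Snx22. Collagen receptor genes had 1 of 11, the integrin gene Itga11 (365.96), with none at Adgrg1, Ddr1, Ddr2 and Gp6. Collagen breakdown genes had 1 of 11, the gelatinase gene Mmp9 (733.77), with none at Ctsk, Fap, Mmp13 and Mmp14. The shares of these lists have intervals that take in 13.1%, except for the propeptide list. The lists were chosen with earlier results of these data known, so this exception cannot serve as support. The lists were not set beside other genes of like length.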

How the data were processed

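Per the submitters' processing notes, the tools were Bowtie and MACS and the build GRCm38 (mm10); their versions and settings, the control and whether libraries were pooled are not given in the sources. The deposited list gives each peak's chromosome, start, end, name and score. The score is the authors' deposited value, its scale is not stated in the file, and it ran from 150.3 to 3233.06 with a median of 572.11. Reads are not listed, so depth is unknown and only counting intervals could be given.

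Starts were written counting from 1. Genes came from the RefSeq table of GRCm38.p6, and strands, starts and sequences from its promoter table of 300-base windows. Python 3.11.15, pandas 2.3.3 and SciPy 1.17.1 were used, with exact (Clopper-Pearson) 95% intervals. The overlap rule was tested on simulated peaks. Collagen classes followed textbook structure. The members, classes and lists were chosen with earlier results of these data known. Every collagen gene is named, with its best peak where it has one; of each partner list, all members with a peak and up to 4 without, in alphabetical order, are named. Sequences were printed for the 4 highest-scoring start peaks and for the most and least CpG-rich windows without a peak, leaving out windows that overlap another gene, an exception added after seeing them. The members of the basement membrane partner list, which count in the total over the partner lists, are not reported here. Stricter scores, other distances, other classes and CpG limits were tried.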

Additional observations from a re-analysis of the deposited data

How the results depend on the processing

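Of 39 alternative counts, 33 stayed within 1.5 times the reported count, 6 moved and 0 reversed. The 33 include the type IV counts of 0. Settings that only narrow the rule could give nothing but 0 there, so those counts say nothing on stability. The tally compares counts and not shares. With scores from the median up, the collagen count was 5 of 44 (7.24% of all protein-coding genes), the fibrillar count 0 of 11, that of the other collagens 5 of 27 and that of the partner lists 7 of 88. Counting Col7a1, Col15a1 and Col18a1 as basement membrane chains, with peaks of any score, gave 1 of 9 (11.1%, 0.281 to 48.2), beside 13.1% of all protein-coding genes. A CpG ratio of at least 0.75, chosen after seeing the data, gave 3 of 6 collagen genes with a start peak (50%, against 12.9% of other genes), and one of at least 0.5 gave 5 of 16 (31.2%, against 14.4%). At 0.5 the count of 5 was unchanged, but the share was lower than the 45.5% of 11 genes at 0.6. Requiring overlap with the gene, 1 kb or 5 kb left the collagen count at 10, and scores of at least double the lowest left 9, without Col9a3. No paired analysis was possible because only 1 library has a peak list. Unknown depth limits every statement on a gene without a peak.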
